A study of Mus musculus with 7 samples.

Results

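Sphingomyelin and ceramide are made and broken down by a small set of enzymes, and 10 of their genes, Sgms1, Sgms2, Ugcg, Smpd1, Smpd2, Smpd3, Asah1, Asah2, Sphk1 and Sphk2, were described in C3H10T1/2 cells treated with purmorphamine or vehicle. All 10 had a row among the 18468 genes of the table of counts. They were selected by symbol on the measured contrast itself, because reads for Sgms2 were much higher with purmorphamine, so their differences between the treatments are given as a description, and no p-value is given for them.

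Ceramide is assembled in the endoplasmic reticulum and carried to the Golgi, where sphingomyelin synthases join it to phosphocholine and glucosylceramide synthase joins it to glucose. Sphingomyelinases turn sphingomyelin back into ceramide, ceramidases release sphingosine from ceramide, and sphingosine kinases convert sphingosine to sphingosine 1-phosphate, a ligand for receptors at the cell surface. In bone, Sgms2 and Smpd3 are both linked to mineralization, and inherited defects of either are known to weaken the skeleton.

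C3H10T1/2 is a mouse mesenchymal line that can be directed toward bone or fat cells, and purmorphamine is a small-molecule agonist of Smoothened (Smo), the 7-transmembrane protein through which Hedgehog acts. The comparison asked which transcripts an agonist of Smo altered without the use of a virus. Cells were held for 12 h without serum and were then given, for 48 h, 2 μM purmorphamine (n = 4 libraries, replicates 5 to 8) or 0.02% DMSO (n = 3 libraries, replicates 2 to 4). The line is a single established culture without a transgene, and nothing in the labels says whether libraries came from separate cultures, so that the errors may reflect technical spread alone.

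The values are reads per gene. Total reads ran from 14337225 to 14342154 per library, and a count of 0 allowed up to 3 reads (counting error only). The treatment was evident in targets of Hedgehog. Gli1, the transcription factor whose transcripts Smo is best known to raise, had 10.0 ± 2.65 reads (SD, n = 3) with DMSO and 2770 ± 295 (SD, n = 4) with purmorphamine. Ptch1, which encodes a Hedgehog receptor, had 504 to 532 and 10296 to 11451 reads. Hhip, which encodes a protein that binds Hedgehog, had at most 1 read in any DMSO library and 139 to 197 with purmorphamine, at least 55.1-fold higher against 3 reads per library. The summed reads of 8 mesenchymal markers were 350806 to 372349 with DMSO and 332851 to 365014 with purmorphamine. Within that sum Vim was lower, at 79220 to 81440 and 41359 to 43378 reads, while Pdgfra (10552 to 11060 and 18354 to 19275) and Thy1 (1060 to 1182 and 1756 to 2024) were higher. Of the endothelial markers Pecam1 and Kdr had at most 5 reads in any library and Cdh5 had 0 with DMSO and 21 to 26 with purmorphamine, whereas Tek made up nearly all of a sum of 779 to 820 with DMSO and 1898 to 2154 with purmorphamine. Cdh1, the epithelial marker with a row, had 14 to 21 and 110 to 135 reads, the 2 blood cell markers with a row summed to 10 to 19, and Ptprc had at most 1. The part of these markers in the results was not tested, and in RNA from whole cultures a change in cells of a type cannot be told apart from a change in RNA per cell.

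Sgms2 (ENSMUSG00000050931, chromosome 3 from 131318985 to 131491411, minus strand, GRCm38) encodes the sphingomyelin synthase found mostly at the plasma membrane, and Sgms1 (ENSMUSG00000040451, chromosome 19 from 32122727 to 32389714, minus strand) the synthase of the Golgi. The table gave Sgms2 a span of 26356 bases, whereas GENCODE M21 annotates 172427. Spans in the table exceeded those of GENCODE by exactly 400 bases for 10489 of the 17632 genes matched by identifier. Less that margin, the span of Sgms2 was 25956 bases, near the 25924 that separate the most downstream of its 6 RefSeq starts from the end of the gene. The other starts lie at least 170058 bases from that end, so that by its length the counted stretch does not reach them. The sequence around that downstream start and around the first listed start of Sgms1 (RefSeq, GRCm38.p6, chr3:131344859-131345158 and chr19:32388463-32388762, both on the minus strand, 250 bases before the start and 50 after) is shown because these windows precede the 2 synthases that are compared, with a match to GACCACC in capitals.
Sgms2: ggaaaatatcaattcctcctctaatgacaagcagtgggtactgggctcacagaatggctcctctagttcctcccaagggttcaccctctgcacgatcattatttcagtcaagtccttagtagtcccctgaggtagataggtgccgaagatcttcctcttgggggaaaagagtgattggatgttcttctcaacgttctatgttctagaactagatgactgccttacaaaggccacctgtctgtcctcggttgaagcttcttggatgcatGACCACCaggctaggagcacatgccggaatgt
Sgms1: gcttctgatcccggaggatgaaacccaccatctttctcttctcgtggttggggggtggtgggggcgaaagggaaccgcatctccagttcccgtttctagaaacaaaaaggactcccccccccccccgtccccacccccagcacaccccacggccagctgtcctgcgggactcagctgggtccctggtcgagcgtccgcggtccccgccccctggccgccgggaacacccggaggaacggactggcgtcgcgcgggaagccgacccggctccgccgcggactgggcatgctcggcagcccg

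The printed window of Sgms2 was 48.3% G and C with 5 CpG, against 69.3% and 28 CpG for that of Sgms1. Medians were 52.7% and 7 over 32851 windows. The contrast is of these 2 windows only. The other windows of Sgms2 ran from 39.0 to 77.7% and from 1 to 44 CpG, and those of Sgms1 from 46.0 to 77.3% and from 4 to 51. The consensus for Gli factors, GACCACCCA, searched on both strands, was in none of the 21 windows listed for 8 of the genes and in 0.253% of all windows. Its 7-letter start GACCACC was searched on both strands after the sequence of Sgms2 had been seen. It was in 1 of the 21 windows, the printed one of Sgms2 at position 269 from its 5′ end, and in 2.8% of all windows. The windows of the Hedgehog targets Ptch1 and Hhip held neither GACCACCCA nor GACCACC. A match or its absence is a description of the letters only.

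Sgms2 had 192, 180 and 189 reads in the DMSO libraries, against 1278, 1283, 1356 and 1290 with purmorphamine. The lowest purmorphamine library thus lay far above the highest DMSO library. Means were 187 ± 6.25 (SD, n = 3) and 1302 ± 36.5 (SD, n = 4), a ratio of 6.96. The log2 fold change from edgeR was 2.75 (standard error, SE, 0.0636), and only 57 of the 12388 genes tested had a larger one. It ran from 2.72 to 2.77 with each library left out in turn.

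Sgms1, by contrast, had 940, 919 and 1003 reads with DMSO and 1088, 1105, 1169 and 1196 with purmorphamine. Every purmorphamine library was again above every DMSO library, but the ratio of means was 1.19 (954 ± 43.7 and 1140 ± 51.3 reads) and the log2 fold change 0.21 (SE 0.0548). Both synthases were therefore higher, Sgms2 by far the more. The other enzyme that draws on ceramide in the Golgi, the glucosylceramide synthase of Ugcg (ENSMUSG00000028381, chromosome 4 from 59189257 to 59222833, plus strand), had 1776, 1717 and 1793 reads with DMSO and 1375, 1394, 1461 and 1517 with purmorphamine. Here all purmorphamine libraries were below all DMSO libraries, with a log2 fold change of -0.34 (SE 0.0491) and a ratio of 0.815.

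Levels of the synthases were compared per kilobase of merged exons, since Sgms1 is annotated with 10.546 kb of exon and Sgms2 with 6.227. Sgms2 supplied 25.7, 24.9 and 24.2% of the summed reads per kilobase of Sgms1 and Sgms2 in the DMSO libraries, and 66.5, 66.3, 66.3 and 64.6% in those given purmorphamine. The less abundant synthase gene of the DMSO libraries was the more abundant in each purmorphamine library on this scale. Mean shares were 24.9 ± 0.755% (SD, n = 3) and 65.9 ± 0.882% (SD, n = 4), and the Wilson 95% confidence interval of a library reached from 22.9 to 28.8% in DMSO replicate 2 and from 64.7 to 68.3% in purmorphamine replicate 5, for counting error only. The summed reads per kilobase were 120 ± 4.73 and 317 ± 9.30, a ratio of 2.63. Which gene led with purmorphamine depended on the length used. Per kilobase of the longest transcript (4.036 kb for Sgms1 and 5.801 for Sgms2) the share of Sgms2 was 12.0 ± 0.426% and 44.3 ± 0.961%, so that Sgms1 led in both treatments, and in reads without regard to length it was 16.4 ± 0.553% and 53.3 ± 0.972%. The gap between the treatments was far wider than the spread between libraries on all 3 scales.

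**Figure D1:**
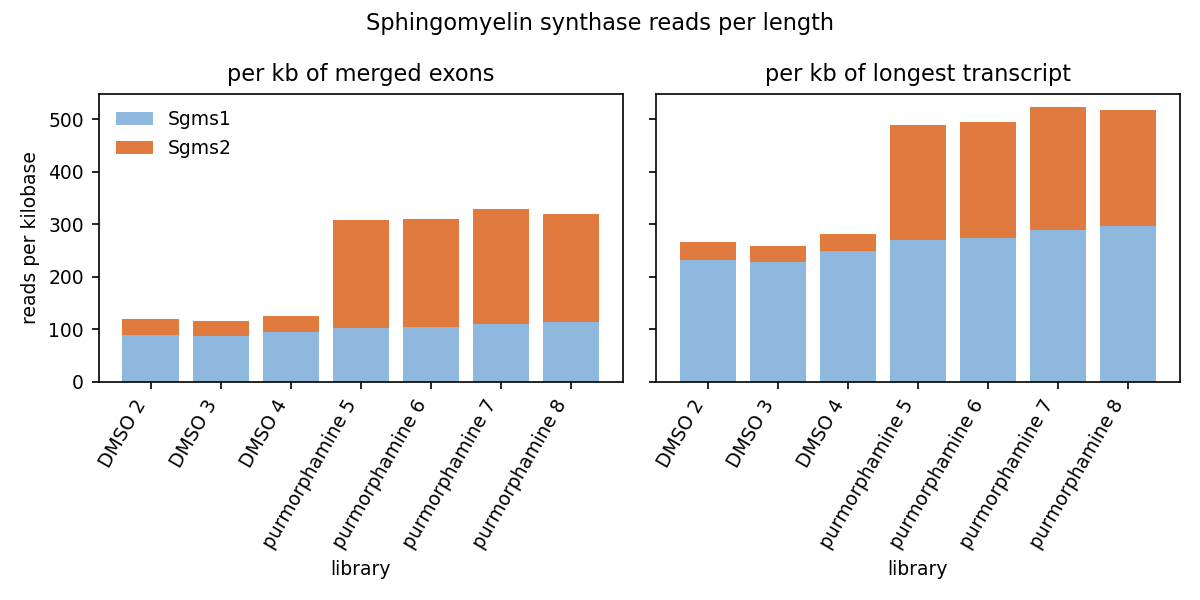
Reads per kilobase (vertical axis) for Sgms1 and Sgms2 in each of the 7 libraries (horizontal axis), stacked, per kilobase of merged exons at left and of the longest transcript at right. Sgms2 makes up 25.7% or less of the sum with DMSO and at least 64.6% with purmorphamine at left, and 12.4% or less and at least 42.9% at right.

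Smpd1 encodes the acid sphingomyelinase of lysosomes (chromosome 7 from 105554360 to 105558389, plus strand). It had 707, 724 and 815 reads with DMSO and 609, 673, 551 and 605 with purmorphamine. The purmorphamine libraries were all lower, with means of 749 ± 58.1 and 610 ± 49.9 reads and a log2 fold change of -0.34 (SE 0.0702). Smpd2, a neutral sphingomyelinase, had 370, 359 and 379 reads with DMSO and 383, 420, 337 and 356 with purmorphamine. Its groups overlapped, and its log2 fold change was -0.03 (SE 0.0787) with a sign that turned to 0.02 with scaling by library totals alone. Smpd3, the neutral sphingomyelinase linked to bone, had 6, 3 and 3 reads with DMSO and 4, 6, 6 and 6 with purmorphamine. It did not pass the filter on low counts, and with so few reads a difference was not detectable at this depth.

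Asah1 and Asah2 encode ceramidases, of the lysosome and of neutral pH respectively. Asah1 (chromosome 8 from 41340197 to 41374773, minus strand) was counted at 4588, 4383 and 4460 reads with DMSO and 5584, 5596, 6140 and 5878 with purmorphamine. Its purmorphamine libraries were all higher, at 5800 ± 265 reads (SD, n = 4) against 4477 ± 104 (SD, n = 3) and a log2 fold change of 0.33 (SE 0.0487). The lysosomal pair thus differed in opposite directions, Asah1 higher and Smpd1 lower, and their ratio per kilobase was 5.39 to 6.39 in the DMSO libraries and 8.18 to 10.97 in the purmorphamine libraries. Asah2 had 1170, 1067 and 1088 reads with DMSO and 1097, 1060, 1221 and 1134 with purmorphamine. These overlapped, with a log2 fold change of -0.02 (SE 0.0584) that became 0.03 with library totals alone.

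The 2 sphingosine kinases were expressed at similar, low levels. Sphk1, which acts largely in the cytosol and at the plasma membrane, had 131, 123 and 132 reads with DMSO and 144, 162, 129 and 130 with purmorphamine. Its groups overlapped, and its log2 fold change was 0.09 (SE 0.109). Sphk2, the kinase also found in the nucleus, had 127, 135 and 138 reads with DMSO and 116, 120, 89 and 100 with purmorphamine. All of its purmorphamine libraries were lower, with a log2 fold change of -0.37 (SE 0.118). The ratio of Sphk1 to Sphk2 per kilobase was 0.794 to 0.899 with DMSO and 1.08 to 1.26 with purmorphamine. On this scale Sphk2 led in each DMSO library and Sphk1 in each purmorphamine library. In reads without regard to length Sphk1 already led in DMSO replicate 2, at 131 against 127.

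**Figure D2:**
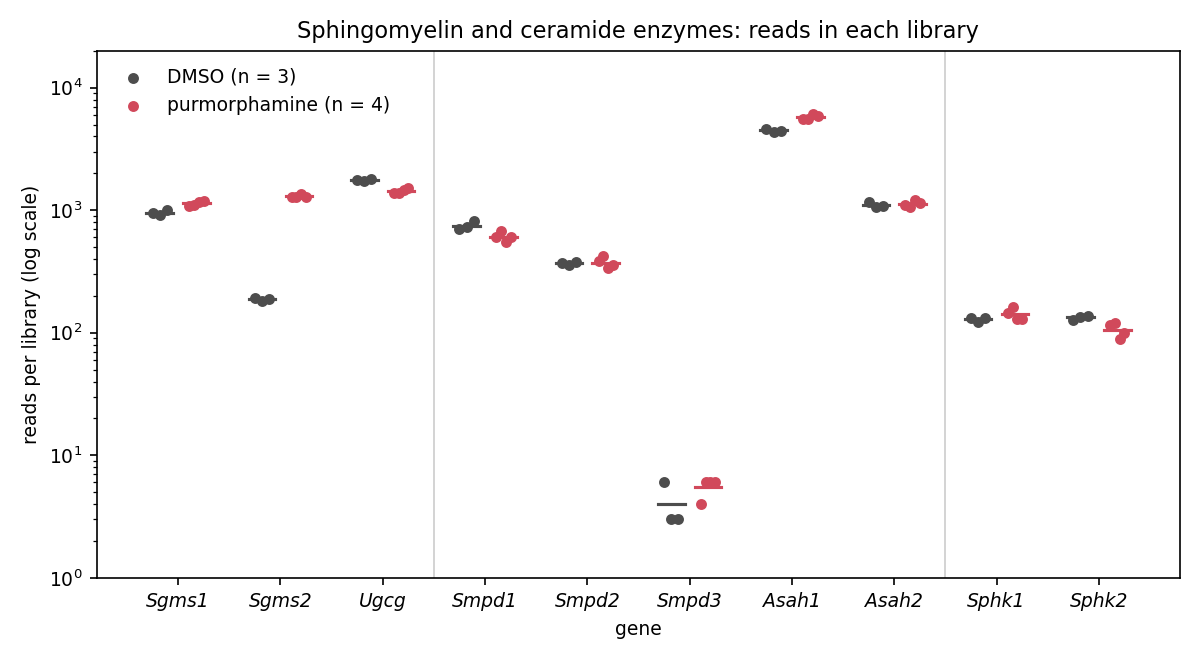
Reads per library (vertical axis, log scale) for the 10 genes (horizontal axis), grouped as synthases, hydrolases and kinases. Each point is a library and each bar the mean of DMSO (n = 3) or purmorphamine (n = 4). Sgms2 is the gene with a wide gap, 180 to 192 against 1278 to 1356 reads, while the groups of the other genes lie close together or overlap.

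As a count only, 9 genes passed the filter, and 3 of them (Sgms2, Asah1 and Sgms1) were higher and 3 (Ugcg, Smpd1 and Sphk2) lower past the threshold of the study, an adjusted p under 0.2 from edgeR, where 31.4% of all genes tested were higher and 31.1% lower. With a change of at least 1.5-fold required as well, Sgms2 alone was higher and none was lower, where 7.89 and 7.56% of all genes were. The groups did not overlap for 6 of the 9, where 49.5% of all genes did not. These counts are no test of the enzymes, since the genes were chosen on this contrast, and nothing is read from them. The median log2 fold change over the 9 was -0.02, against 0.0038 over all genes.

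By reads per kilobase of merged exons, Asah1 stood highest with DMSO at 1321 ± 30.5 (SD, n = 3), followed by Ugcg at 338 ± 7.65, Smpd1 at 224 ± 17.4, Asah2 at 95.2 ± 4.68, Sgms1 at 90.5 ± 4.15, Smpd2 at 82.7 ± 2.24, Sphk2 at 32.1 ± 1.37, Sgms2 at 30.0 ± 1.003, Sphk1 at 27.0 ± 1.03 and Smpd3 at 0.765 ± 0.331. The ranges of Asah2 and Sgms1 overlapped, as did those of Sphk2 and Sgms2. With purmorphamine Sgms2 moved to place 3, at 209 ± 5.86 (SD, n = 4), behind Asah1 at 1711 ± 78.0 and Ugcg at 276 ± 12.5, and ahead of Smpd1 at 183 ± 14.96 and Sgms1 at 108 ± 4.87. It was in the fifth place by the longest transcript, where its range overlapped that of Smpd1. Asah2 overlapped both Sgms1 and Smpd2 with purmorphamine, and Sphk1 overlapped Sphk2. The ratio of Sgms2 to Ugcg, which both use ceramide, was 0.0877 to 0.0905 with DMSO and 0.712 to 0.778 with purmorphamine. For Sgms1, the synthase of the Golgi, the ratio to Ugcg was 0.262 to 0.276 and 0.390 to 0.395. That of Sgms2 to Smpd1, which work in opposite directions, was 0.124 to 0.146 and 1.02 to 1.32. These levels are divided by exon lengths of GENCODE M21, which can include exons that the table did not count. Besides Sgms2, the table gave shorter spans than GENCODE to Smpd3 (11061 against 85441 bases) and Asah2 (77216 against 125615), and the effect on the order was not tested.

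The other genes of sphingolipid metabolism were examined in 5 lists of 68 genes, of which 59 had a row and 50 were tested. Of these, 15 rose (30.0%) and 22 fell (44%) at an adjusted p under 0.2, against 31.4 and 31.1% of all genes, and 15 and 19 did at an adjusted p under 0.05, where 23.2 and 23.6% of all genes did. With a change of at least 1.5-fold required, 3 rose and 6 fell of the 50, where 7.89 and 7.56% of all genes did. Their median log2 fold change was -0.04. The lists were chosen with earlier results of these data known. The counts of each list below are to be set against 31.4% of all genes higher and 31.1% lower. Sptlc3, Sptssb, Degs2, Fa2h, St8sia5, Enpp7, Acer1, S1pr4 and S1pr5 were not analysed here.

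Among the 13 genes tested for ceramide synthesis 2 rose and 5 fell, with a median log2 fold change of -0.05. The ceramide synthases, which each favor acyl chains of a certain length, moved apart. Cers4, a synthase of long-chain ceramides, rose from 274, 298 and 304 reads with DMSO to 531, 536, 567 and 522 with purmorphamine, or by 0.84 on the log2 scale (SE 0.0697, adjusted p = 3.05e-08 from edgeR). Cers6, which makes ceramides with a palmitoyl chain, fell from 1960, 2043 and 2102 reads to 1153, 1139, 1230 and 1318, a log2 fold change of -0.80 (SE 0.0548, adjusted p = 2.65e-09 from edgeR). Neither pair of groups overlapped. Cers2, the synthase of very long chains, fell slightly with a log2 fold change of -0.11 (SE 0.0442, adjusted p = 0.0598 from edgeR). Its call was lost with library totals alone and without DMSO replicate 2 (adjusted p = 0.279 and 0.229 from edgeR). Cers5 had a log2 fold change of 0.02 (adjusted p = 0.809 from edgeR) and Cers1 of 0.26 (adjusted p = 0.281 from edgeR). Cers1, whose locus overlaps that of Gdf1 and whose count is thereby uncertain, had 42 reads in purmorphamine replicate 7 and 66 to 82 in the other purmorphamine libraries, and without replicate 7 it was 0.43 (adjusted p = 0.0333 from edgeR). Cers3 had 1 to 6 reads and was not tested. Degs1, the desaturase of the last step toward ceramide, fell by 0.35 on the log2 scale (adjusted p = 1.76e-05 from edgeR). Ormdl1, which restrains the first step, rose by 0.33 (adjusted p = 0.0106 from edgeR). The related Ormdl2 and Ormdl3 were not called, with log2 fold changes of 0.14 and -0.07 (adjusted p = 0.306 and 0.394 from edgeR).

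For ceramide transfer and head groups, 3 genes rose and 3 fell of 7 tested. Col4a3bp, which encodes the protein that carries ceramide to the Golgi for sphingomyelin synthesis, rose from 1506, 1512 and 1507 reads to 1966, 1937, 2146 and 2008, a log2 fold change of 0.37 (SE 0.0493, adjusted p = 9.5e-06 from edgeR). Samd8, a relative of the synthases that makes ceramide phosphoethanolamine, rose from 886, 772 and 789 reads to 975, 853, 1040 and 940, which overlap, at a log2 fold change of 0.18 (adjusted p = 0.0491 from edgeR, and 0.207 without DMSO replicate 3). Cerk, the ceramide kinase, fell by 0.24 on the log2 scale (adjusted p = 0.00983 from edgeR). Its reads, 488 to 565 with DMSO and 424 to 495 with purmorphamine, overlapped as deposited but not after scaling. The carrier of ceramide toward the sphingomyelin synthases thus rose, and the ceramide kinase fell. Of the 6 genes tested for gangliosides and globosides, the lipids made downstream of Ugcg, none rose at an adjusted p under 0.2 from edgeR and 5 fell, with a median log2 fold change of -0.36. The weakest of these calls was B4galt6 (log2 fold change -0.10, adjusted p = 0.183 from edgeR). Its groups overlapped, at 888 to 1017 reads with DMSO and 865 to 951 with purmorphamine. B4galnt1, which starts the complex gangliosides, fell by 0.53 on the log2 scale (SE 0.106, adjusted p = 0.000541 from edgeR), from 198, 233 and 227 reads to 159, 176, 129 and 162. St3gal5 fell by 0.47 and B4galt5, the lactosylceramide synthase that acts directly after Ugcg, by 0.42 (adjusted p = 7.53e-05 and 1.44e-05 from edgeR), and A4galt, with 163 to 178 and 180 to 192 reads, was not called (log2 fold change 0.07, adjusted p = 0.579 from edgeR).

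Among 15 lysosomal and other hydrolases tested 7 rose and 5 fell. Acer3, an alkaline ceramidase, rose from 913, 1028 and 988 reads to 1762, 1689, 1894 and 1820, a log2 fold change of 0.83 (SE 0.0564, adjusted p = 2.29e-09 from edgeR). Smpdl3a, which encodes a secreted relative of acid sphingomyelinase, rose from 653, 702 and 664 reads to 884, 880, 965 and 884, a log2 fold change of 0.38 (SE 0.0572, adjusted p = 3.75e-05 from edgeR). Neither pair of groups overlapped. Smpdl3b, a relative of Smpdl3a, went the other way, from 66, 64 and 66 reads to 34, 22, 25 and 36, a fall of 1.20 on the log2 scale and the widest change among the hydrolases (SE 0.179, adjusted p = 3.2e-05 from edgeR). The genes Gla, Glb1 and Galc, for hydrolases of glycolipids in lysosomes, also fell, by 0.37, 0.22 and 0.18 on the log2 scale (adjusted p = 0.00122, 0.00855 and 0.0121 from edgeR). Of the ceramidases, Asah1 and Acer3 had higher reads, Asah2 had groups that overlapped, and Acer2, with 4, 5 and 6 reads with DMSO and 3, 1, 2 and 2 with purmorphamine, was not tested.

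**Figure D3:**
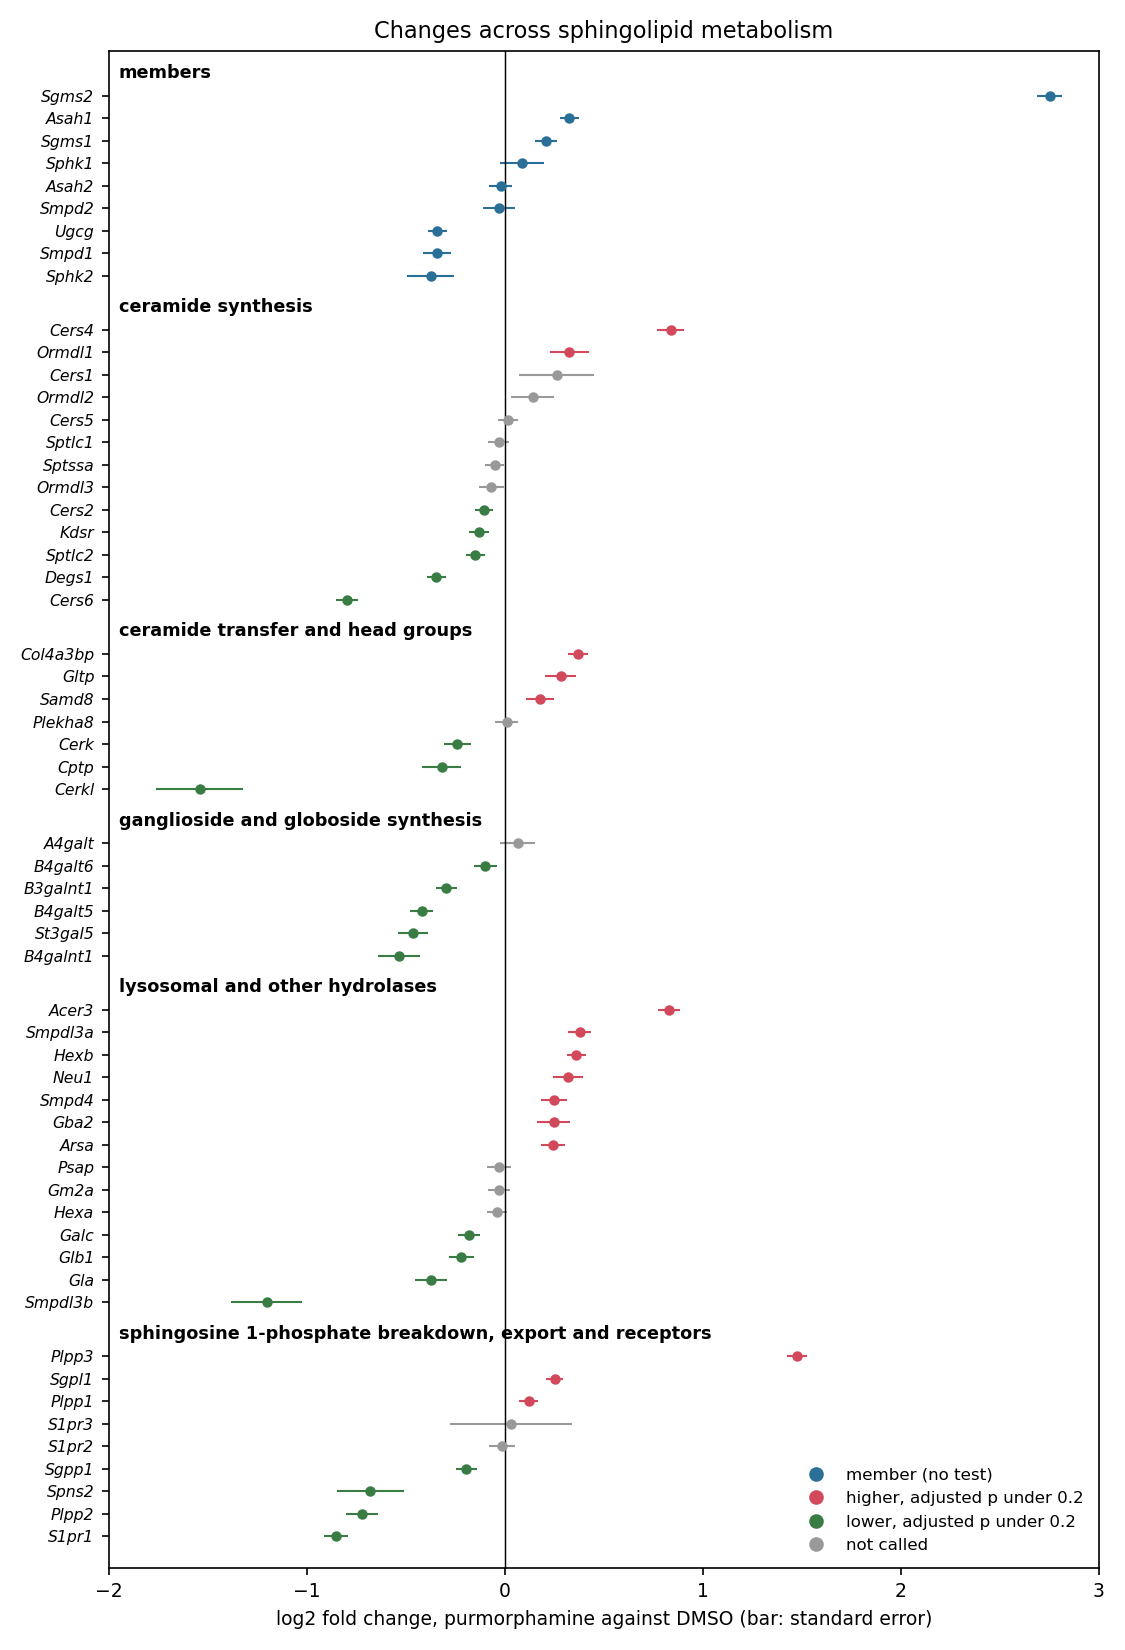
Log2 fold change of purmorphamine against DMSO (horizontal axis, bars are standard errors) for the 9 enzyme genes that passed the filter, shown with no test, and 49 of the other sphingolipid genes tested, by list. Sgms2 lies at 2.75, apart from all the others, of which Plpp3 at 1.48 is the highest and Cerkl at -1.54 the lowest. The signs of Smpd2 and Asah2 depended on the scaling.

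Of 9 genes tested that act after the kinases, on sphingosine 1-phosphate, 3 rose and 4 fell. Plpp3, a phosphatase that removes phosphate from sphingosine 1-phosphate and lysophosphatidic acid outside the cell, rose from 2764, 2683 and 2740 reads to 7761, 8497, 7541 and 7588. This was the largest increase among the 50 genes, with a log2 fold change of 1.48 (SE 0.0510, adjusted p = 4.43e-13 from edgeR). Plpp2, a related phosphatase, fell from 653, 637 and 697 reads to 448, 432, 341 and 439 (log2 fold change -0.72, SE 0.0803, adjusted p = 1.19e-06 from edgeR). S1pr1, a receptor for sphingosine 1-phosphate, fell from 787, 772 and 833 reads to 457, 443, 443 and 483, a log2 fold change of -0.85 (SE 0.0593, adjusted p = 3.09e-09 from edgeR). Spns2, which exports the ligand, fell from 97, 80 and 80 reads to 53, 51, 43 and 74 (log2 fold change -0.68, adjusted p = 0.00311 from edgeR). The receptors S1pr2 and S1pr3 were not called, with log2 fold changes of -0.01 and 0.03 (adjusted p = 0.892 and 0.947 from edgeR), and S1pr3 had only 10 to 24 reads. Of the genes that act on the ligand itself, the lyase gene Sgpl1 rose by 0.25 on the log2 scale and the phosphatase gene Sgpp1 fell by 0.19 (adjusted p = 0.00012 and 0.00536 from edgeR). Plpp1 rose by 0.12 on the log2 scale (adjusted p = 0.0468 from edgeR). The exporter, S1pr1, Plpp2 and Sgpp1 thus fell, while the extracellular phosphatase Plpp3, Plpp1 and the lyase rose.

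**Figure D4:**
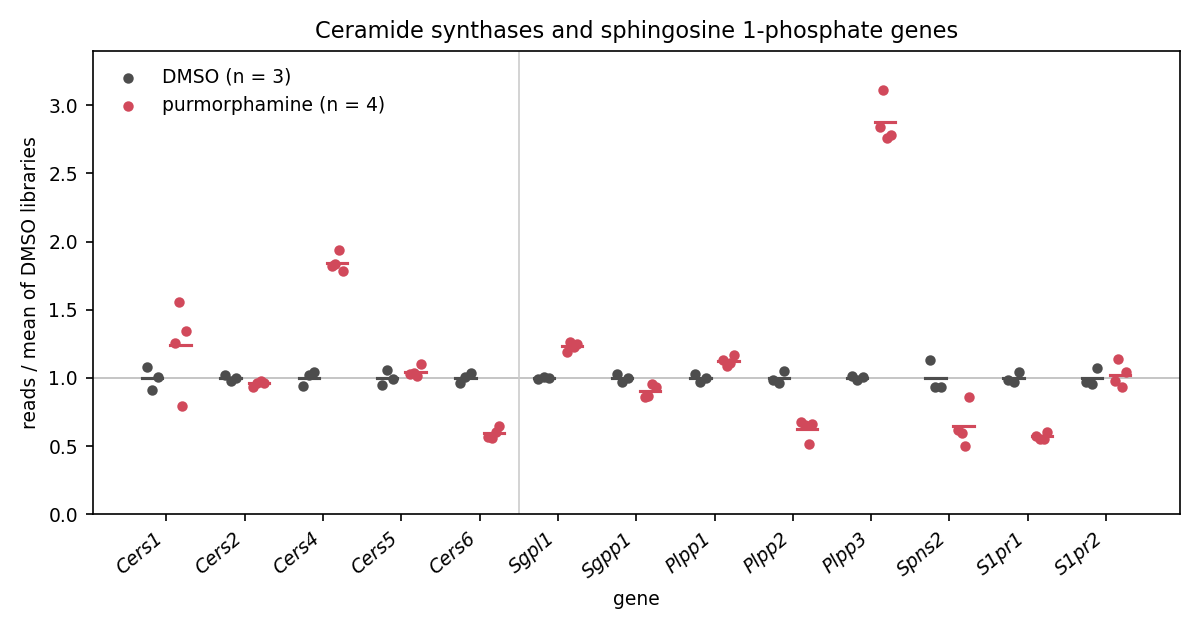
Reads in each library divided by the mean of the DMSO libraries (vertical axis) for ceramide synthases and genes of sphingosine 1-phosphate (horizontal axis), with points for libraries and bars for means of DMSO (n = 3) and purmorphamine (n = 4). All purmorphamine libraries stand above all DMSO libraries for Cers4, Plpp3, Sgpl1 and Plpp1. They stand below them for Cers6, Plpp2, S1pr1, Spns2 and Sgpp1, and the groups overlap for the other genes shown.

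The genes whose reads most resembled those of Sgms2 over the 7 libraries were found by Pearson correlation of log2 CPM, out of 10672 genes that averaged 50 reads or more. They were Flrt2 (r = 0.99976), an adhesion molecule, Klf4 (r = 0.99975), a transcription factor, Rassf3 (r = 0.9997), Steap4 (r = 0.99947), a metalloreductase, and Magi1 (r = 0.99942), a scaffold of cell junctions. Klf4 had 654 ± 3.51 reads with DMSO and 4903 ± 98.5 with purmorphamine, and Steap4 693 ± 29.1 and 3850 ± 84.7. As many as 231 genes reached an r of 0.99. The points are the same libraries under the same pair of treatments, so that these correlations chiefly restate the difference between treatments.

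Of the 10 genes, 5 overlapped another gene in the coordinates of the table. Mical1, which lies opposite Smpd2, had 343 to 381 reads with DMSO and 621 to 816 with purmorphamine, while Smpd2 stayed between 337 and 420. Rpl18 and Dbp lie opposite Sphk2 and Apbb1 opposite Smpd1, and their log2 fold changes were -0.04, -0.04 and 0.16. The counts are of the sense strand, and those 4 genes are on the strand opposite to the enzyme gene, as is Ppil6, which also overlaps Smpd2. The strand is not known for Gm17245, which covers all 11061 bases of the span of Smpd3 in the table and had 0 or 1 read, or for 2700046G09Rik, which overlaps 899 bases of Sgms1 and had 33 to 59.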

How the data were processed

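Total RNA of the 7 libraries was depleted of ribosomal RNA, made into stranded libraries and sequenced. Per the paper, the authors resampled reads to a common depth (14337225 to 14342154 per library), then deposited whole-number counts of sense-strand reads per gene. The submitters' notes name STAR 2.5.3a and mm9, and the annotation release is not given in the sources used here. Positions and lengths are from GENCODE M21 (GRCm38) by identifier, and sequences from RefSeq. Counts were fitted with edgeR 4.0.16 (R 4.3.3) using TMM factors, the default filter (minimum count 10, total 15) and the quasi-likelihood test, with p-values adjusted by Benjamini-Hochberg across 12388 genes and called at 0.2, the FDR of the study, after a test on simulated counts. The members and gene lists were chosen with earlier results of these data known. Genes named were the 10 enzymes, the Cers and S1pr genes, Samd8, Col4a3bp, Cerk, Sgpl1, Sgpp1, the 5 largest changes in each direction among other listed genes called with a mean of at least 50 reads, targets of Hedgehog and the 5 genes most like Sgms2. 1 further gene under this rule is not reported here. Degs1, Ormdl1, Ormdl2, Ormdl3, B4galt5, B4galt6, St3gal5, A4galt, Cerkl, Smpdl3b, Gla, Glb1, Galc, Acer2, Plpp1, overlapping genes and markers were added to fill out a list or a caption. The listed ones were added after their values were seen. Also tried were DESeq2 1.42.0, limma-voom (3.58.1), other scaling, other filters, stricter thresholds, other lengths and each library left out. No per-sample column was unused.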

Additional observations from a re-analysis of the deposited data

Results flagged for a closer look

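For 4 of 39 genes checked, 1 of the 4 purmorphamine libraries stood apart from the other 3 after scaling, by a gap that took more of the whole range than Dixon's 95% critical value allows, where chance gives about 1 in 20 groups. The gap took 0.891 of the range for Sgms2, 0.964 for Smpd3, 0.917 for Smpdl3a and 0.897 for Cers5. For Sgms2 the library apart was purmorphamine replicate 7, with 1356 reads against 1278 to 1290, and without it the log2 fold change was 2.73. Replicate 7 was also the one apart for Smpdl3a, with 965 reads against 880 to 884. For Smpd3 it was purmorphamine replicate 5, with 4 reads against 6. The other purmorphamine libraries were tied at 6 reads, and such a tie by itself makes the gap share large, so nothing is read from it. For Cers5 it was replicate 8, with 2051 reads against 1892 to 1930.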

How the results depend on the processing

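Requiring a change of at least 1.5-fold lowered the count of enzymes past the threshold, a description only, from 3 to 1 higher and from 3 to 0 lower, and the other sphingolipid genes from 15 to 3 higher and from 22 to 6 lower. The share of Sgms2 with purmorphamine was 44.3% with the longest transcript and 53.3% with no length correction in place of 65.9%, and its place by level was 5 in place of 3. With each library left out in turn 13 to 16 of the other genes were higher and 21 lower, 3 enzymes were higher and 3 lower, the log2 fold change of Sgms2 was 2.72 to 2.77 and its share 65.7 to 66.4%. Of the 37 other genes called, at least 34 were called in the same direction under each alternative scaling, test or filter on low counts and with any library left out, and 0 in the other direction. Among the genes named by rule, Cers2 lost its call (log2 fold change -0.06 with library totals alone and -0.09 without DMSO replicate 2). Samd8 lost its call as well (0.13 without DMSO replicate 3), and Cers1 gained one (0.43 without purmorphamine replicate 7). Another called gene lost its call without purmorphamine replicate 8, where 36 of the 37 kept theirs, Cers2 and Samd8 among them. The cause was not tested. No paired analysis was possible because no replicate number is common to both treatments. Genes with few reads, Smpd3 and S1pr3 among them, were limited by depth. Lengths came from GENCODE M21, which is not the annotation of the table. The lengths used bear on levels compared between genes but not on fold changes. The fold change of Sgms2 is for the counted stretch, which by its length does not reach the upstream starts of the gene.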
